A study of Eurytemora affinis with 4 samples.

Results

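The 442 loci described here are the transcribed loci of the copepod *Eurytemora affinis* that span more than 20000 bases of the genome assembly. *Eurytemora affinis* is a small calanoid crustacean of estuaries and coastal waters. A transcribed locus is a stretch of a scaffold covered by overlapping assembled transcripts, and its span runs from the first to the last base of those transcripts, introns included. The loci were chosen by position alone: on a contig named Scaffold, with a position given to no other locus, and with a span above 20000 bases. They are 442 of 61672 loci in the authors' deposited table, and the rule uses no expression value. Span is itself read from assembled transcripts, which can break where reads are few, so span and level are not independent measures. They were compared with the 21547 loci that met the same conditions with a span of 1000 to 20000 bases, called mid-span loci below.

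RNA with a poly(A) tail was sequenced from whole adults raised in culture, with 2 libraries of pooled males and 2 libraries of pooled females. Both sexes were kept at 13 °C and 15 PSU of salinity under 15 h of light and 9 h of dark. Males and females were separated for 2 days, the last 24 h of them without food but with beads of 6.0 µm at 120 µL/L. The authors deposited 1 pooled FPKM value per sex, that is fragments scaled by transcript length and by sequencing depth, together with their own comparisons of males with females by Cuffdiff and by edgeR. Values of single libraries were not analysed here. The values below therefore carry no spread between replicates, the depth of each library is unknown, and each test named is the authors'. Whether the pools stem from separate cultures is not in the labels, so those tests may measure technical spread only. Whole animals were used, so more RNA per cell and more cells of a kind cannot be told apart, and an organ present in 1 sex counts in full.

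In animals, most of the length of a long gene is intron, sequence that is transcribed and then spliced out before the messenger RNA is translated. Transcribing such a gene takes longer than transcribing a compact one, and its many exons give room for alternative splicing, the joining of different exons into different isoforms of one gene. In well-studied animals, many of the longest genes are active in neurons and muscle, for example those of cell adhesion molecules, ion channels and giant muscle proteins. The deposited identifiers come without gene names, so whether that holds here was not analysed, neither tissue nor sex could be checked against marker genes, and loci are given by identifier and position. No genome was used, and no sequence is shown. Which build the scaffolds belong to is not named in any source used here, and positions count from 1.

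The median span of the long loci was 24109 bases, against 3555 bases for the mid-span loci. Their spans covered a narrow range above the threshold, with 370 loci of up to 30000 bases, 72 above that and a longest locus of 62171 bases. They lay on 275 of the 2677 scaffolds that carry a locus; 177 of these scaffolds held 1 long locus and none held more than 6. The nearest other locus was 766.5 bases away at the median for long loci and 933 bases away for mid-span loci. It lay within 1000 bases for 55.4% of long loci, 51.7% of mid-span loci and 51.3% of all loci with a measured distance. On 14 occasions 2 long loci were direct neighbours, 127 to 7360 bases apart. The files do not tell whether such neighbours are parts of 1 gene.

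The loci nearest to the threshold were as follows. Just inside it, GENE_0021043, with a span of 20025 bases, had 9.96 FPKM in males and 14.4 FPKM in females from 2 isoforms. GENE_0104032, at 20033 bases, had 1.77 FPKM in males and 3.77 FPKM in females from 4 isoforms. Just outside it, GENE_0010255, at 19942 bases, had 2.14 FPKM in males and 2.20 FPKM in females from 3 isoforms. GENE_0103473, at 19931 bases, had 3.80 FPKM in males and 3.05 FPKM in females from 4 isoforms. Of these 4 loci, GENE_0021043 had the highest level in both sexes and the fewest isoforms.

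Long loci were expressed at higher levels than mid-span loci in both sexes. The median was 1.83 FPKM in males and 2.46 FPKM in females for long loci, against 0.487 FPKM in males and 0.403 FPKM in females for mid-span loci. The quartiles of the long loci were 0.524 and 6.54 FPKM in males and 0.405 and 9.20 FPKM in females. Those of the mid-span loci were 0.0998 and 2.28 FPKM in males and 0.0746 and 2.33 FPKM in females. An FPKM of at least 10 was reached by 15.8% of the long loci in males and 23.8% in females, against 8.82% of the mid-span loci in males and 10.2% in females. At the other end, 39 long loci (8.82%) stayed under 0.1 FPKM in both sexes, against 19.8% of the mid-span loci.

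**Figure D1:**
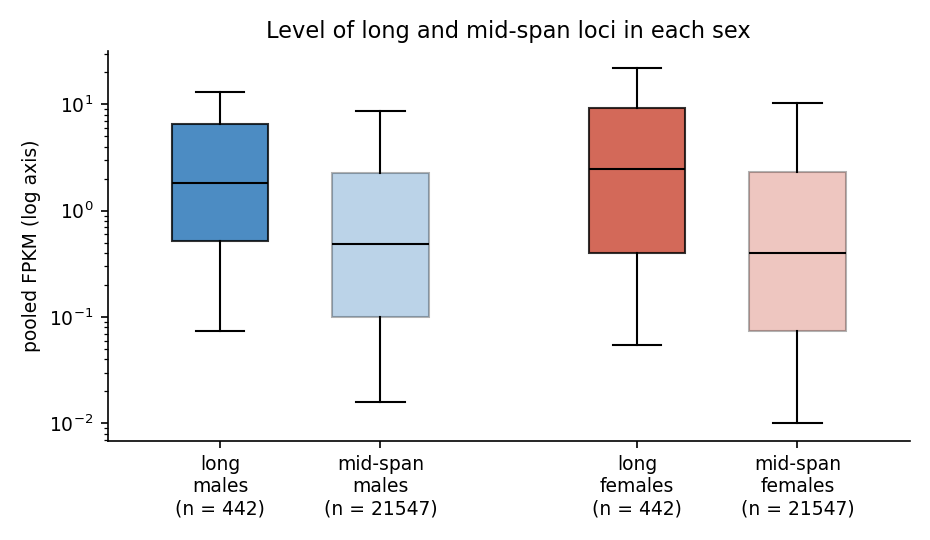
Pooled FPKM on a log axis of the 442 long and 21547 mid-span loci, with males in the left pair and females in the right pair. Boxes span the quartiles, the line is the median and whiskers reach the 10th and 90th percentiles of loci, not of replicates; the medians of 1.83 and 2.46 FPKM of long loci lie above the 0.487 and 0.403 FPKM of mid-span loci.

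All 442 long loci had an FPKM above 0 in both sexes, whereas 1102 mid-span loci (5.11%) were listed at 0 in males and 1033 (4.79%) were listed at 0 in females. The 90th percentile was 13.2 FPKM in males and 21.8 FPKM in females for long loci, against 8.63 and 10.2 FPKM for mid-span loci. The single highest levels were found among the far more numerous mid-span loci, up to 30334 FPKM in males and 2415 FPKM in females. No long locus exceeded 91.4 FPKM in males or 99.5 FPKM in females. Above 5000 bases the level climbed with span on both sides of the threshold. At spans of 5000 to 10000 bases the median was 0.442 FPKM in males and 0.390 FPKM in females. At 10000 to 20000 bases it was 0.763 FPKM in males and 0.745 FPKM in females. At 20000 to 30000 bases it was 1.60 FPKM in males and 2.31 FPKM in females, and above 30000 bases 3.07 FPKM in males and 5.07 FPKM in females. Within the long loci alone the relation was loose, with a Spearman's rho of 0.193 between span and level across 442 loci, which share the same libraries.

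Most of the highest FPKM values were similar in both sexes or higher in females. The highest belonged to GENE_0002653 on Scaffold15, bases 501981 to 529430, with 91.4 FPKM in males and 99.5 FPKM in females. Its log2 fold change of males over females was 0.03 by edgeR and -0.12 by Cuffdiff in the authors' deposited tables, and neither tool called it. Its neighbour 351 bases away, GENE_0103134, was the locus of the second-largest span, at bases 446294 to 501629. It had 25.5 FPKM in males and 40.4 FPKM in females and was not called by either tool. GENE_0029975 on Scaffold326, bases 124405 to 150205, had 66.4 FPKM in males and 71.8 FPKM in females. The authors' deposited edgeR table called it female-biased at a log2 fold change of -0.80 (adjusted p = 0.0271), whereas Cuffdiff gave -0.11 and did not call it (adjusted p = 0.899).

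GENE_0002559 on Scaffold1, bases 3752208 to 3781022, had 43.8 FPKM in males and 85.6 FPKM in females. In the authors' deposited tables its log2 fold change was -1.18 by edgeR (adjusted p = 8.51e-05) and -0.97 by Cuffdiff (adjusted p = 0.00418). GENE_0006354 on Scaffold90, bases 460610 to 485870, had 20.7 FPKM in males and 71.7 FPKM in females, with a log2 fold change of -1.59 by edgeR (adjusted p = 4.96e-07) in the authors' deposited table. The fifth of the highest loci, GENE_0021480, was the strongest male-biased case and is described with those.

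Males had less of most long loci than females did. Of the 442 loci, 158 (35.7%) were higher in males and 284 (64.3%) were higher in females by FPKM. Of the mid-span loci, 52.5% were higher in males and 45.5% were higher in females. The median log2 ratio of male over female FPKM was -0.42 for long loci, against 0.14 for the mid-span loci and 0.13 for all loci above 0 in both sexes. The mid-span loci nearest in span, at 10000 to 20000 bases, had a median of -0.06, and 47.5% of them were higher in males. In the authors' deposited edgeR table the median log2 fold change was -0.24 for long loci, 0.13 for mid-span loci and 0.13 over all 37449 loci. These medians varied with level, so 0.13 does not hold for loci of every level. At 1 FPKM or more in at least 1 sex, the median log2 ratio of FPKM was -0.59 for long and -0.11 for mid-span loci. Where the higher FPKM of the sexes was 0.1 to 1, it was 0.38 for long and 0.31 for mid-span loci. For most long loci the shift was small: 67.0% had male and female FPKM within 2-fold of each other, against 54.1% of the mid-span loci. A ratio of 4-fold or more was found for 14 long loci (3.17%) toward males and 18 (4.07%) toward females. These shares were 9.21% and 7.53% of the mid-span loci, and 13.0% and 9.54% of all loci, above 0 in both sexes.

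The authors' deposited edgeR table tested 438 of the 442 long loci and called 172 of them sex-biased at an adjusted p under 0.05, that is 39.3%. The background over all 37449 loci of that table was 18%. Split by direction, 59 long loci (13.5%) were male-biased, against a background of 8.4%, and 113 (25.8%) were female-biased, against a background of 9.58%. Of the mid-span loci, the authors' deposited edgeR table called 9.12% male-biased and 9.66% female-biased. By Cuffdiff, 30 of 393 tested long loci (7.63%) were male-biased, against a background of 7.06%. Another 112 (28.5%) were female-biased in the authors' deposited Cuffdiff table, against a background of 10.4%. Of the mid-span loci, 9.12% were male-biased and 14.2% female-biased in the authors' deposited Cuffdiff table, so that the male-biased share of long loci was above that of mid-span loci by edgeR and below it by Cuffdiff. At 10000 to 20000 bases the Cuffdiff shares were 10.8% male-biased and 22.8% female-biased. The 2 tools were run on the same libraries, so their counts are no independent support for each other. Like totals do not make like sets: some long loci were called by 1 tool only. The authors' deposited set of loci shared by 3 methods held 1343 loci in all. Among them were 31 long loci (7.01% of long loci), 8 male-biased and 23 female-biased, and 887 mid-span loci (4.12% of mid-span loci).

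**Figure D2:**
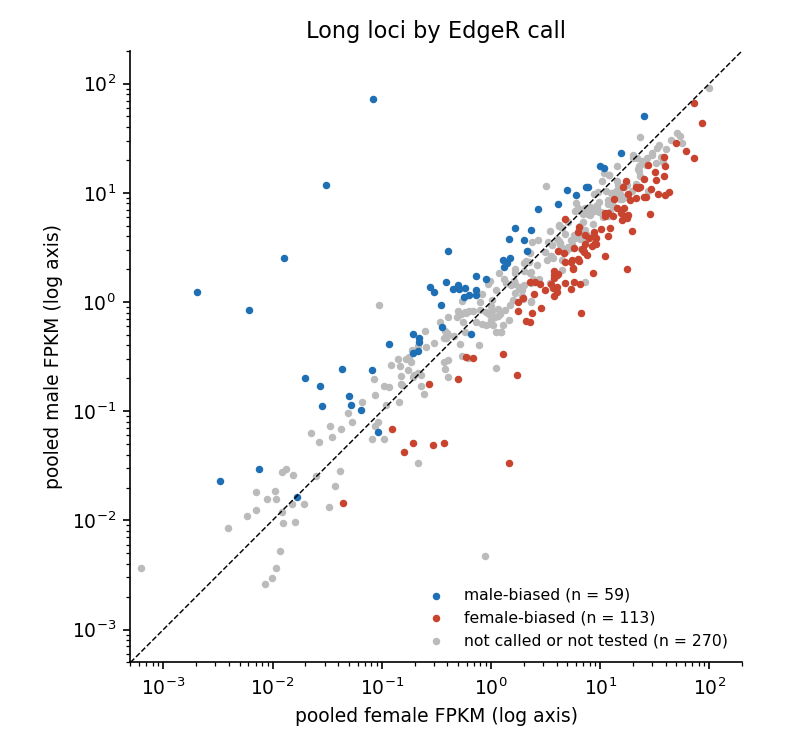
Each point is 1 of the 442 long loci, with pooled male FPKM on the vertical and pooled female FPKM on the horizontal log axis; the dashed line marks equal levels and colours give the authors' edgeR call. Most of the 113 female-biased loci form a band just below the line at 1 to 100 FPKM, whereas the 59 male-biased loci spread over lower levels too and include 5 points far above the line.

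Tests find a difference more readily where reads are many, and long loci had more of them. Average abundance, in log2 CPM, which is scaled by library size but not by length, was 6.25 at the median for long loci and 2.56 for mid-span loci in the authors' deposited edgeR table. Calls were therefore also counted within bins of abundance, with exact Clopper-Pearson 95% intervals that cover counting error over loci only. At 6 to 8 log2 CPM, the fullest bin of the long loci, the authors' deposited edgeR table called 14 of 177 (7.91%, interval 4.39% to 12.9%) male-biased. Of the mid-span loci in that bin, 22.2% (interval 19.8% to 24.7%) were male-biased. The difference between the spans was not itself tested. In the same bin 69 long loci (39.0%, interval 31.8% to 46.6%) were female-biased, against 26.1% (interval 23.5% to 28.7%) of the mid-span loci.

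At 8 log2 CPM and above, the authors' deposited edgeR table called 4 of 65 long loci (6.15%) male-biased, against 37.7% of 260 mid-span loci, and 22 (33.8%) female-biased, against 19.6%. Below 6 log2 CPM the order was different. At 4 to 6, 28 of 106 long loci (26.4%, interval 18.3% to 35.9%) were male-biased in that table, against 17.2% of the mid-span loci. In that bin 18 long loci (17.0%, interval 10.4% to 25.5%) were female-biased, against 22.9% of the mid-span loci. At 2 to 4 log2 CPM, 13 of 63 long loci (20.6%) were male-biased, against 9.61% of the mid-span loci, and 4 (6.35%) were female-biased, against 8.65%. The excess of female-biased long loci over male-biased ones thus stood at high abundance, and the reverse held at low abundance.

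**Figure D3:**
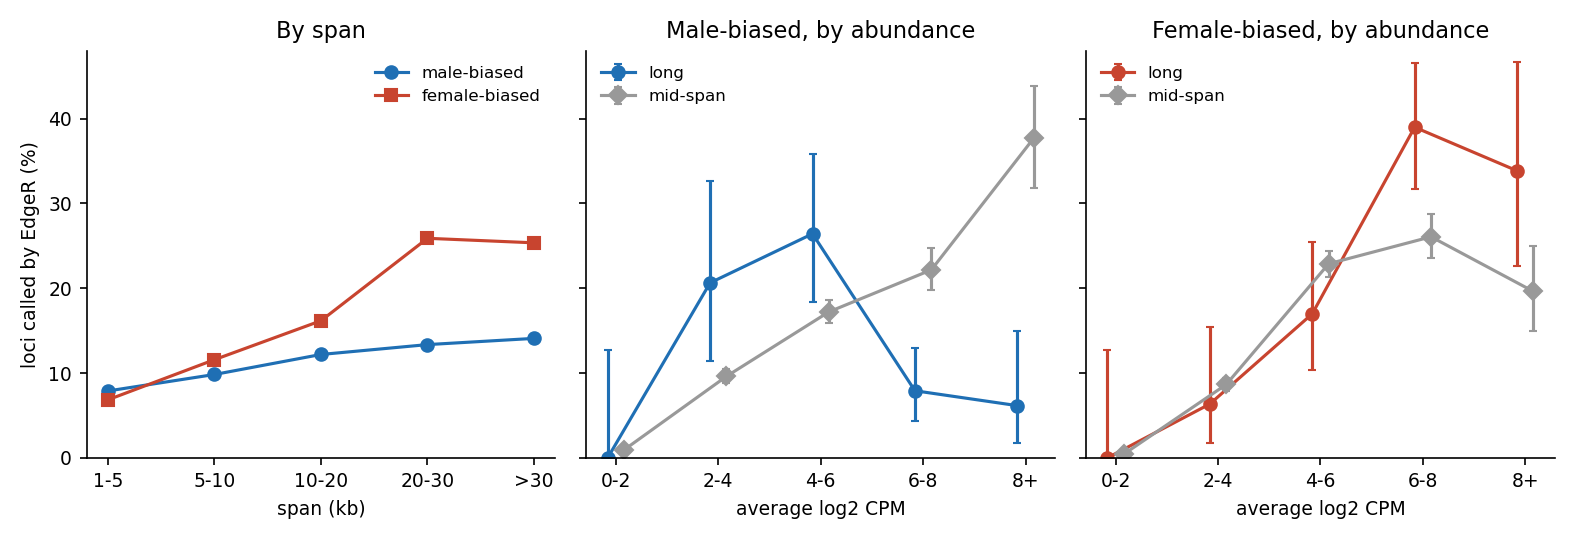
Percent of loci called by edgeR, by span in the left panel and by average log2 CPM in the other panels, for male-biased and female-biased calls; bars in the right panels are exact 95% Clopper-Pearson intervals over loci. By span the female-biased share climbs to 25.9% and 25.4% in the last bins while the male-biased share reaches 13.4% and 14.1%, and at 6 log2 CPM or more long loci lie below mid-span loci for male-biased and above them for female-biased calls.

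The same turn with level appeared in the FPKM values. Among the 113 long loci with 10 FPKM or more in at least 1 sex, 19 (16.8%) were higher in males, against 41.7% of the mid-span loci of that level. Among the 198 with 1 to 10 FPKM, 57 (28.8%) were higher in males, against 3270 of 6538 mid-span loci. Among the 92 with 0.1 to 1 FPKM, 61 (66.3%) were higher in males, against 59.4% of the mid-span loci. Across the long loci, the log2 ratio of males over females had a Spearman's rho of -0.35 with the mean level of the sexes. The ratio and the level share the same 2 values, so this is a description only. In total, long loci made up 1.17% of the tested loci but 4.67% of the male and 6.39% of the female counts implied by the fold changes and abundances of the authors' deposited edgeR table, without scaling by length.

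The called differences of long loci were smaller than those of mid-span loci, though a 2-fold difference was reached by 51 of 59 male-biased and 67 of 113 female-biased ones in the authors' deposited edgeR table. In the authors' deposited edgeR table the median log2 fold change of the 59 male-biased long loci was 1.50, and that of the male-biased mid-span loci was 1.92. The 113 female-biased long loci had a median of -1.14, against -1.64 for female-biased mid-span loci. A log2 fold change of 4 or more in size was reached by 6 male-biased and 2 female-biased long loci. Of the called mid-span loci, 481 of 1412 male-biased and 209 of 1497 female-biased ones reached it in the authors' deposited edgeR table. Median abundance was 5.24 log2 CPM for male-biased and 7.02 for female-biased long loci, against 4.56 and 4.78 for the called mid-span loci, and the part of abundance in these sizes was not tested. The female-biased long loci were the more abundant ones. Their median was 3.07 FPKM in males and 7.14 FPKM in females, whereas the male-biased long loci had 1.32 FPKM in males and 0.454 FPKM in females.

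The strongest male bias among long loci was that of GENE_0021480 on Scaffold731, bases 40723 to 65378, a locus of 1 isoform. It had 73.0 FPKM in males and 0.0827 FPKM in females, the second-highest male level and one in the lowest quartile of female levels among long loci. Its log2 fold change was 10.92 by edgeR (adjusted p = 2.31e-96) and 9.79 by Cuffdiff (adjusted p = 0.000859) in the authors' deposited tables. GENE_0022882 on Scaffold113, bases 276008 to 303571, had 11.7 FPKM in males and 0.0310 FPKM in females, a log2 fold change of 8.76 by edgeR (adjusted p = 4.04e-47) in the authors' deposited table. GENE_0141878 on Scaffold33, bases 1072808 to 1096930, had 2.51 FPKM in males and 0.0128 FPKM in females, with 7.56 by edgeR (adjusted p = 9.59e-09) in the authors' deposited table. In all of these the female level was close to 0, where a log2 fold change depends on the small prior count of the fit and is no bound.

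The male-biased loci next in order were less extreme. GENE_0004249 on Scaffold404, bases 72334 to 92926, had 1.24 FPKM in males and 0.299 FPKM in females. Its log2 fold change was 3.62 by edgeR and 2.05 by Cuffdiff (adjusted p = 2.05e-14 and 0.0137) in the authors' deposited tables. GENE_0060882 on Scaffold377, bases 342094 to 366857, had 1.44 FPKM in males and 0.503 FPKM in females, with 3.07 by edgeR and 1.52 by Cuffdiff (adjusted p = 1.85e-10 and 0.00738) in the authors' deposited tables. Both remained detectable in females, at 0.299 FPKM or more.

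The male extreme also held loci that the naming rule left out and that were chosen after their values were seen. GENE_0164360 on Scaffold62, bases 993665 to 1014442, had the largest edgeR log2 fold change of all long loci, 13.30 (adjusted p = 4.40e-84) in the authors' deposited table. Cuffdiff gave it 1.23 FPKM in males and 0.00205 FPKM in females and did not call it (adjusted p = 0.449 in the authors' deposited table). The tools also conflict on its abundance. Its average CPM was 806 times its mean FPKM, against a median of 26.8 times for long loci, so its level is uncertain. GENE_0130128 on Scaffold238, bases 402351 to 426039, had 0.850 FPKM in males and 0.00607 FPKM in females, with a log2 fold change of 7.47 by edgeR (adjusted p = 2.88e-39) in the authors' deposited table.

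On the female side, GENE_0157679 on Scaffold51, bases 201713 to 223474, had the largest difference among loci called by both tools. It had 0.0334 FPKM in males and 1.46 FPKM in females, a log2 fold change of -4.91 by edgeR (adjusted p = 5.63e-19) and -5.46 by Cuffdiff (adjusted p = 0.000859) in the authors' deposited tables. GENE_0024834 on Scaffold13, bases 1410079 to 1458648, is also the locus of the fifth-largest span, 48570 bases. It had 0.794 FPKM in males and 6.64 FPKM in females, with -3.00 by edgeR (adjusted p = 3.25e-17) in the authors' deposited table. GENE_0081014 on Scaffold80, bases 1210391 to 1233368, had 0.215 FPKM in males and 1.74 FPKM in females, with -2.87 by edgeR (adjusted p = 3.97e-10) in the authors' deposited table. Of these 3, only GENE_0157679 lay under 0.1 FPKM in males.

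GENE_0172484 on Scaffold826, bases 33158 to 53200, had 1.45 FPKM in males and 6.49 FPKM in females, with a log2 fold change of -1.91 by edgeR (adjusted p = 9.87e-09) in the authors' deposited table. GENE_0036525 on Scaffold82, bases 1079021 to 1104743, had 1.83 FPKM in males and 8.67 FPKM in females, with -1.90 (adjusted p = 7.17e-09) in the authors' deposited edgeR table. The locus 402 bases beyond it, GENE_0103833, is a long locus called in the opposite direction by edgeR, with 3.80 FPKM in males and 1.46 FPKM in females, and was singled out after its values were seen. A locus outside the naming rule, GENE_0075223 on Scaffold13, bases 1974391 to 1999459, had the largest female bias by edgeR, -5.27 (adjusted p = 5.59e-14) in the authors' deposited table. Cuffdiff gave it 0.178 FPKM in males and 0.269 FPKM in females and did not call it (adjusted p = 0.429 in the authors' deposited table), so that the tools conflict on it.

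**Figure D4:**
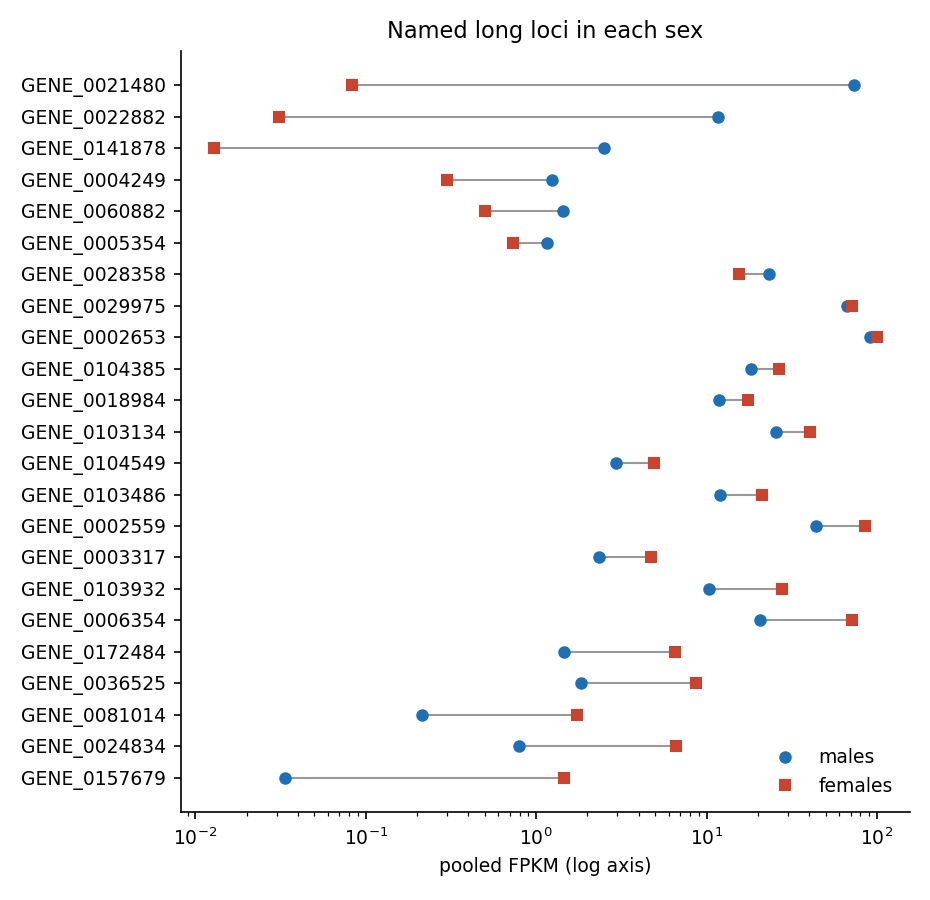
Pooled male (circles) and female (squares) FPKM on a log axis of the 23 long loci named for span, level, bias or isoform number, ordered by their ratio from the most male-biased at the top to the most female-biased at the bottom. The top 3 loci have 2.51 to 73.0 FPKM in males and under 0.1 FPKM in females, and most of the others differ by less than 4-fold.

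Of the 5 longest loci, GENE_0024834, described above, was called female-biased by both tools, and the other 4 were called by edgeR alone or by neither tool. GENE_0103486 on Scaffold413, bases 76482 to 138652, had the largest span, 62171 bases, and 9 isoforms. It had 12.0 FPKM in males and 21.2 FPKM in females, and neither tool called it, with adjusted p of 0.183 by edgeR and 0.157 by Cuffdiff in the authors' deposited tables. GENE_0005354 on Scaffold147, bases 891672 to 944022, had 1.16 FPKM in males and 0.731 FPKM in females. GENE_0028358 on Scaffold370, bases 220594 to 271700, had 23.4 FPKM in males and 15.5 FPKM in females. The authors' deposited edgeR table called both of these male-biased, with log2 fold changes of 1.04 (adjusted p = 0.00397) and 0.83 (adjusted p = 0.0146). Cuffdiff called neither, with adjusted p of 0.391 and 0.208 in the authors' deposited table. Of the 71 tested loci above 30000 bases, 10 (14.1%) were male-biased and 18 (25.4%) female-biased in the authors' deposited edgeR table. The backgrounds were 8.4% and 9.58%.

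Long loci carried more isoforms than mid-span loci. The authors' deposited isoform table listed 1263 isoforms for the 442 long loci, with a mean of 2.86 and a median of 2 per locus, against a mean of 1.22 and a median of 1 for mid-span loci. Of the long loci, 279 (63.1%) had 2 or more isoforms and 92 (20.8%) had 5 or more. Of the mid-span loci, 12.4% had 2 or more and 0.998% had 5 or more. The share with 2 or more isoforms climbed with span on both sides of the threshold. Among mid-span loci it was 6.00% at up to 5000 bases and 19.0% at 5000 to 10000 bases. At 10000 to 20000 bases it was 34.1%, with a mean of 1.74 isoforms. Among long loci it was 61.1% at 20000 to 30000 bases and 73.6% above 30000 bases. Isoforms were assembled from the same reads, and more reads can give more isoforms, so the numbers were also set side by side at like abundance. At 6 to 8 log2 CPM, which is not scaled by length, long loci had a mean of 3.36 isoforms, against 1.75 for mid-span loci, and at 4 to 6 log2 CPM the means were 2.56 and 1.48. At like FPKM long loci have more reads than mid-span loci. At 10 FPKM or more, long loci had a mean of 4.16 isoforms, against 1.52 for mid-span loci. At 0.1 to 1 FPKM the means were 1.80 and 1.12. Across the long loci, isoform number had a Spearman's rho of 0.471 with level and 0.177 with span.

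**Figure D5:**
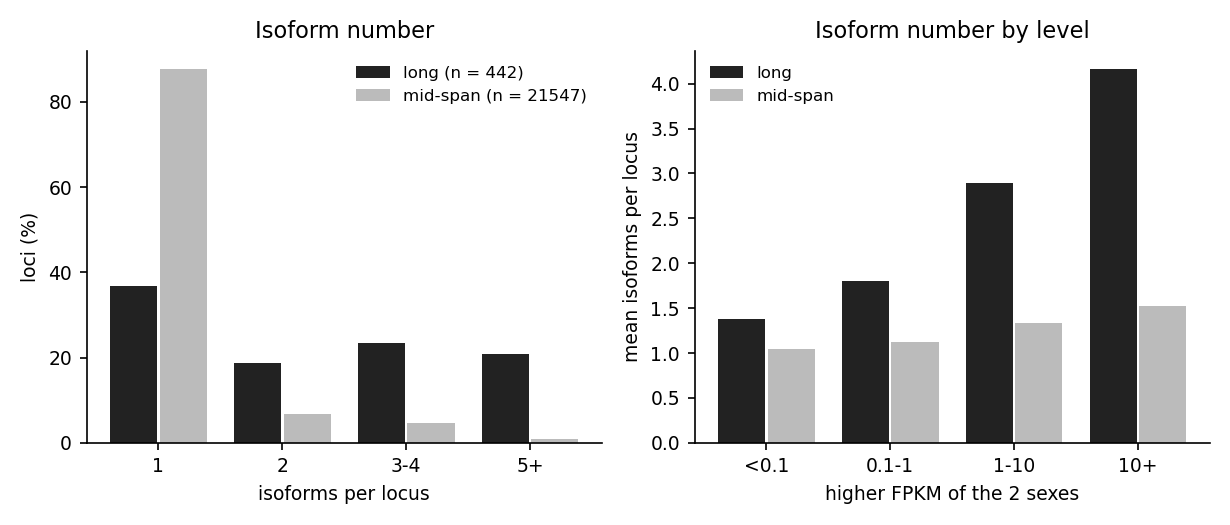
Left, percent of long and mid-span loci with 1, 2, 3 to 4 and 5 or more isoforms; right, mean isoforms per locus by the higher FPKM of the 2 sexes. A single isoform was listed for 36.9% of long and 87.6% of mid-span loci, and the mean was higher for long loci in each bin of level, from 1.38 against 1.05 below 0.1 FPKM to 4.16 against 1.52 at 10 FPKM or more.

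The sex ratio did not follow isoform number in even steps. Among the 163 long loci with 1 isoform, 41.1% were higher in males, and 18.2% were male-biased and 21.4% female-biased in the authors' deposited edgeR table. Among the 83 with 2 isoforms, 49.4% were higher in males, and 14.5% were male-biased and 22.9% female-biased in the authors' deposited edgeR table. Among the 104 with 3 to 4 isoforms, 25% were higher in males, and the authors' deposited edgeR table called 6.73% male-biased and 27.9% female-biased. Among the 92 with 5 or more isoforms, 26.1% were higher in males, and 12.0% were male-biased and 33.7% female-biased in the authors' deposited edgeR table. Mid-span loci with 5 or more isoforms, of which there were 215, came to a like value, with 26.0% higher in males. Of mid-span loci with 1, 2, 3 to 4 and 5 or more isoforms, the authors' deposited edgeR table called 8.97%, 10.8%, 9.74% and 5.12% male-biased. It called 8.78%, 11.3%, 16.4% and 23.3% of them female-biased, a share that rose with isoform number in mid-span loci too. At 5 or more isoforms the median level of long loci was 6.51 FPKM in males and 11.1 FPKM in females, so that isoform number and level were not separated.

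The locus with the most isoforms, GENE_0104549 on Scaffold135, bases 607627 to 647903, had 11, with 2.96 FPKM in males and 4.89 FPKM in females, and was called by neither tool. GENE_0003317 on Scaffold481, bases 238960 to 259157, had 10 isoforms and 2.35 FPKM in males and 4.75 FPKM in females. It was female-biased by edgeR at a log2 fold change of -1.02 (adjusted p = 0.00877) in the authors' deposited table. GENE_0104385 on Scaffold94, bases 254662 to 289671, had 10 isoforms, with 18.1 FPKM in males and 26.4 FPKM in females, and was called by neither tool. GENE_0018984 on Scaffold2, bases 3303667 to 3331842, had 9 isoforms, with 11.9 FPKM in males and 17.5 FPKM in females, and was likewise not called. GENE_0103932 on Scaffold94, bases 1000162 to 1029364, had 10 isoforms and 10.3 FPKM in males and 27.7 FPKM in females. Cuffdiff called it female-biased at a log2 fold change of -1.42 (adjusted p = 0.00874), whereas edgeR gave -0.56 (adjusted p = 0.188) in the authors' deposited tables. All 5 of these isoform-rich loci were lower in males by FPKM.

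In long loci with 2 or more isoforms, 1 isoform usually led. It held 77.2% of the locus FPKM in males and 80.5% in females at the median, against 90.3% in males and 89.8% in females for mid-span loci with 2 or more isoforms. Of the loci with 2 or more isoforms, 92 of 279 long and 215 of 2671 mid-span ones had 5 or more. The part of isoform number in the leading share was not tested. The mid-span medians rest on 2635 of the 2671 loci. The leading isoform differed between the sexes in 43 of 279 long loci (15.4%) and in 461 of 2635 mid-span loci (17.5%). Among the isoforms of long loci, 84 of 1119 (7.51%) were male-biased and 127 (11.3%) female-biased in the authors' deposited edgeR table, against backgrounds of 5.64% and 6.69%. By Cuffdiff, 24 of 772 isoforms (3.11%) were male-biased and 110 (14.2%) female-biased in the authors' deposited table, against backgrounds of 6.07% and 8.95%. Isoforms of 1 locus share reads, and how each tool divided them was not tested.

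Isoforms called in opposite directions within 1 locus were found in 13 of the 279 long loci (4.66%) by edgeR and in 2 (0.717%) by Cuffdiff, in the authors' deposited tables. Among mid-span loci they were found in 14 of 2635 (0.531%) by edgeR and in 0 by Cuffdiff, in the authors' deposited tables, and mid-span loci have fewer isoforms each. In several of the long loci, an isoform called by edgeR had 0 FPKM in both sexes by Cuffdiff, as did CUFF.64080.1 of GENE_0020487. CUFF.53547.10 of GENE_0103771 was male-biased by edgeR, but Cuffdiff listed it at 0 FPKM in males and 7.03 FPKM in females. The edgeR count therefore includes cases on which the tools conflict. The 1 locus with isoforms called in opposite directions by both tools, GENE_0104111, was singled out after its values were seen. Its isoform CUFF.32228.4 had 0.816 FPKM in males and was listed at 0 in females, and was male-biased by Cuffdiff (adjusted p = 0.00332) and by edgeR (adjusted p = 0.0163) in the authors' deposited tables. Its isoform CUFF.32228.5 had 2.02 FPKM in males and 7.93 FPKM in females, and was female-biased by Cuffdiff (adjusted p = 0.00704) and by edgeR (adjusted p = 4.93e-05) in the authors' deposited tables. The leading isoform of this locus was CUFF.32228.1 in males, at 35.0% of the locus, and CUFF.32228.5 in females, at 42.1%. A value listed at 0 may be an estimate that failed.

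The values above hold for loci that share their position with no other locus. Another 2342 loci lay on stretches above 20000 bases that the table gives to several loci at once, where the span of each is not known. With those included, the median level was lower, at a log2 ratio to the mid-span median of 0.83 in males and 1.01 in females, against 1.91 and 2.61 without them. The share of loci with 2 or more isoforms was 27.1%. Of 2348 tested loci, 264 (11.2%) were male-biased and 402 (17.1%) female-biased in the authors' deposited edgeR table. The backgrounds were 8.4% and 9.58%.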

How the data were processed

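Members, lists and tests were chosen with earlier results of these data known. Reads were processed by the authors with TopHat, Cufflinks, edgeR and Cuffdiff, per the submitters' processing notes, which give no version. The deposited Cuffdiff tables hold 1 pooled FPKM value per sex, a log2 fold change (male over female), a p-value and an adjusted p-value, per the file headers. The authors' deposited edgeR tables hold a log2 fold change in the same direction, an average log2 CPM, a p-value and an adjusted p-value, per the file headers.

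The gene map mode tables list 6733 loci and 5867 isoforms, each of which recurs with identical values in the Trinity mode tables. The edgeR map fold changes of the authors' deposited shared set equal those of the Trinity-named table for 1343 of 1343 loci (tolerance 1e-06), and the shared set's Trinity fold changes do so for 0, so the Trinity-named tables were read as the full gene map comparison. Loci were matched to the authors' edgeR values and isoforms by the test identifier of the Cuffdiff table, which matched 442 of 442 long loci to isoforms. The gene identifier column matched 351. Of the 46401 distinct locus positions on scaffolds, 0 overlap another. The deposited starts were read as counting from 0, and 1 was added.

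Counts, medians and shares were computed here from the deposited values, and no test was run. The named loci were the 5 each of largest span, highest FPKM, strongest male bias, strongest female bias and most isoforms, where bias was ranked by the authors' edgeR fold change and required a call by both tools in 1 direction and 1 FPKM in 1 sex, and the 2 loci on either side of the span threshold. Ties went by identifier. Implied counts per sex come from the average log2 CPM and the fold change. The choice of loci was tested on simulated data. Python 3.11.15 was used with scipy 1.17.1, pandas 2.3.3, matplotlib 3.10.9 and numpy 2.4.6. A list of genes by content was planned and could not be run, since no annotation was used here.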

Additional observations from a re-analysis of the deposited data

How the results depend on the processing

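No paired analysis was possible because the deposited tables hold pooled values and comparisons with no value per library, and for the same reason no library could be left out. In the alternatives run, female-biased long loci outnumbered male-biased ones, the level was above that of mid-span loci and the median ratio was below 0, but sizes moved. Centring the edgeR fold changes on the median of all loci, 0.13, could not turn a call, since the smallest called size was 0.68. A floor of 1 log2 CPM removed no long locus, since the lowest had 1.10. Both are no further check of the counts. At a log2 fold change of 2 or more in size, which was not among the alternatives, the order was the reverse, with 16 male-biased and 9 female-biased loci in the authors' deposited edgeR table. In the authors' deposited edgeR table, the 59 male-biased and 113 female-biased loci became 22 male-biased at an adjusted p under 0.001, and 72 and 52 female-biased under 0.01 and 0.001. Where the fold change had to reach 2-fold there were 51 male-biased and 67 female-biased, and with Cuffdiff calls 30 male-biased and 112 female-biased. Above 15000 bases edgeR called 143 male-biased and 231 female-biased, above 30000 bases 10 and 18, and with shared positions, an alternative chosen after seeing the data, 264 and 402. In the authors' deposited Cuffdiff table, the 30 and 112 became 15 and 73 at an adjusted p under 0.01, 94 and 249 above 15000 bases, 5 and 18 above 30000 bases, and 83 and 273 with shared positions. Counts under another span or with shared positions rest on another number of loci. By edgeR they were 13.0% and 21.0% of tested loci above 15000 bases, 14.1% and 25.4% above 30000 bases, and 11.2% and 17.1% with shared positions. The backgrounds were 8.4% and 9.58%. By Cuffdiff the shares were 9.98% and 26.4%, 7.35% and 26.5%, and 4.31% and 14.2%, against backgrounds of 7.06% and 10.4%. At an adjusted p under 0.01 or 0.001 the share over all loci was not computed.

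The log2 ratio of the long to the mid-span median was 1.91 in males and 2.61 in females. It was 1.32 and 2.09 over loci that Cuffdiff tested, 3.41 and 4.12 for implied counts, which are not scaled by length, 1.56 and 2.08 above 15000 bases, 2.66 and 3.65 above 30000 bases, and 0.83 and 1.01 with shared positions. With loci at 0 left out it was 2.28 in females. The median log2 ratio of males over females, -0.42, was -0.23 with a pseudocount of 1, -0.59 at 1 FPKM or more, -0.24 by edgeR, -0.26 above 15000 bases and -0.22 with shared positions. The share with 2 or more isoforms, 63.1%, was 57.7% for isoforms above 0 FPKM, 58.1% for isoforms in the edgeR table, 49.9% above 15000 bases, 73.6% above 30000 bases and 27.1% with shared positions. No distinct position overlaps another, and loci that share a position were already left out. Leaving out overlaps therefore removed no locus and is no further check. Of the named loci, GENE_0002653 had a log2 fold change of 0.03, but -0.10 when centred on the median of all loci and -0.12 by Cuffdiff. GENE_0104385 had 0.04, but -0.0902 when centred and -0.54 by Cuffdiff. Neither was called. Why values moved between the alternatives was not tested. The depth of the libraries is unknown.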

Other observations

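The 14 pairs of directly neighbouring long loci were looked at after their values were seen. On Scaffold161, GENE_0009212 and GENE_0000327 lay 127 bases apart, with 13.2 and 9.66 FPKM in males and 32.7 and 17.9 FPKM in females, and the authors' deposited edgeR table called both female-biased. On Scaffold27, GENE_0000894 and GENE_0134426 lay 580 bases apart, with 17.9 and 13.4 FPKM in males and 27.7 and 25.4 FPKM in females, and both were female-biased there too. On Scaffold101, GENE_0041665 and GENE_0000193 lay 3359 bases apart, and edgeR called both female-biased. They had 3.88 and 2.94 FPKM in males and 7.84 and 4.15 FPKM in females. On Scaffold82, GENE_0036525 and GENE_0103833 lay 402 bases apart and were called in opposite directions. In each of the other pairs, at least 1 locus was not called by edgeR. Whether the loci of a pair belong to 1 gene was not tested.

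The 4 long loci that the edgeR table does not list had 1 isoform each. Cuffdiff called 2 of them in the authors' deposited table, GENE_0167490 with 1.02 FPKM in males and 2.35 FPKM in females, and GENE_0129372 with 1.48 FPKM in males and 3.44 FPKM in females, both female-biased.

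The ratio of average CPM to mean FPKM, which grows with the length over which reads were counted, was 26.8 at the median for long loci and 6.63 for mid-span loci. It ranged from 0.922 to 1156 among the long loci, so that the tools placed some of these loci at very different levels. The spread was not limited to single loci such as GENE_0164360. The 10th and 90th percentiles were 10.6 and 181 for long loci, and 1.14 and 72.0 for mid-span loci. Loci of like log2 CPM can therefore differ in FPKM, and the cause was not tested.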
